A study of Drosophila melanogaster with 23 samples.

Results

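Cells of the Drosophila line S2R+ that had spent 72 h at 14 °C were compared with S2R+ cells kept at 25 °C that the study describes as similar to them in cell density. The study bases this match on earlier cell counts. The comparison used the 4 arrays titled 72h and the 3 arrays titled 12h_25C, which are 7 of the 23 arrays in the series, and all 32162 gene probes on the array. S2R+ is an established line of embryonic origin with hemocyte-like properties. All cultures were first kept for 36 h at 25 °C. The cold cultures then stood for 72 h at 14 °C and the warm cultures for a further 12 h at 25 °C, so that the time in culture was 108 h in the cold group and 48 h in the warm group (t12_25 in the plots), and temperature and time in culture cannot be told apart. The other 16 arrays cover the time of the shift (0 h) and 4, 12 and 24 h at 14 °C. Every array measured total RNA of 1 culture, extracted with TRIzol, labelled with Cy3 and hybridised to a one-colour Agilent array of the fly transcriptome. The methods call the cultures of a group biological replicates. The study repeated the experiment because some arrays gave data of too low quality, and the sample titles do not name the run.

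Flies and their cells do not hold their own temperature, so a shift to the cool end of the tolerated range slows each enzyme, polymer and membrane process to its own extent. Before a cell divides, the origin recognition complex marks sites on DNA, the MCM helicase is loaded there and unwinds it, DNA polymerase alpha with primase starts the new strands, and ribonucleotide reductase makes their building blocks. Cell density itself alters growth and nutrient signalling in culture.

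Across arrays of the same group the log2 values of all probes correlated with r = 0.979 to 0.997 in the cold cultures and 0.977 to 0.994 in the warm ones, and between the groups with r = 0.966 to 0.987. Between 48.7% and 52.8% of probes were well above background on a cold array and between 46.8% and 53.9% on a warm array. No gene spot was saturated. The scanner software put 3 of the 4 cold arrays (replicates 1, 2 and 3) and 0 of the 3 warm arrays outside its quality range, and the negative control spots were brighter on the cold arrays (5.72 ± 0.39, SD, n = 4, on the log2 scale) than on the warm ones (5.15 ± 0.27, n = 3; two-sided exact permutation test, p = 0.114, with 0.0571 the smallest p possible). Without the 3 cold arrays outside the quality range, 521 of the 717 calls described below were kept and all 717 kept their sign, with the remaining cold array assumed to vary like the other groups. The part of the negative control signal in the results was not tested. The identity of the cells could be checked with few probes. Of the 13 hemocyte markers, 2 had a named probe and both were well above background on all 7 arrays. The GATA factor gene srp stood at 11.44 in warm and 11.01 in cold cells (log2 change −0.43, adjusted p = 0.0149 in limma) and its cofactor gene ush at 11.58 and 11.95 (0.38, adjusted p = 0.0522). Of the 7 muscle precursor markers, 3 had named probes. The 4 probes of twi and vg were above background on no array, whereas ct, a homeodomain gene, was above background on all 7 and was lower in the cold, at 10.18 in warm and 9.06 in cold cells (log2 change −1.13, adjusted p = 0.000512).

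A probe was called higher or lower when the limma fit gave an adjusted p under 0.05 and a change of at least 2-fold. The cultures were measured in bulk, so that fewer cells with a transcript and less of it per cell cannot be told apart. In the cold cells 403 probes were higher (1.25% of all probes) and 314 were lower (0.976%). Without the limit on fold, 2017 probes were higher (6.27%) and 2276 lower (7.08%). The called probes moved by a median of 2.42-fold upward and 2.33-fold downward. The extremes were 11.7-fold and 17.4-fold, and 44 probes rose and 17 fell by over 4-fold. In 707 of the 717 called probes the 4 cold arrays did not overlap the 3 warm arrays, against 17.2% of all probes (8.22% higher and 8.97% lower). On all 7 arrays 685 called probes were well above background. In 8 of the higher probes no warm array was well above background, and 0 of the lower probes were dim on every cold array.

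**Figure D1:**
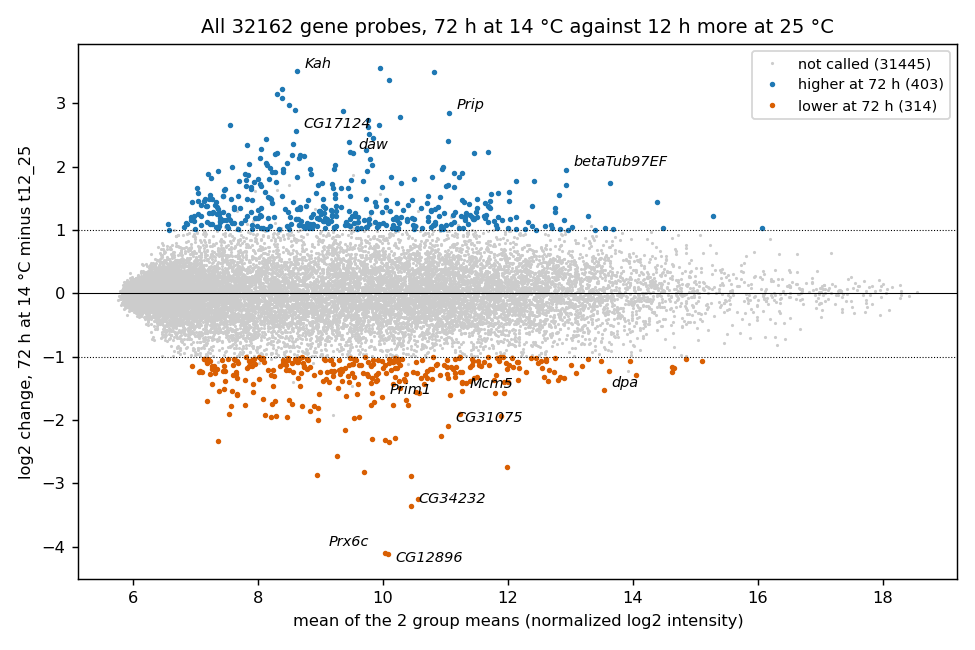
Log2 change of each of the 32162 gene probes between the cold and the warm cultures (vertical axis) against the mean of its group means on the log2 scale (horizontal axis), with the 403 probes called higher in blue, the 314 called lower in orange and dotted lines at 2-fold. Most probes lie around 0, and CG12896 and Prx6c lie lowest, with falls of 17.4-fold and 17.2-fold.

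Arrays of both groups shared a slide in 2 cases. The called-higher probes had a median log2 difference of 1.30 between cold replicate 3 and warm replicate 3 on slide 1 and of 1.41 between cold replicate 4 and warm replicate 2 on slide 5, beside 1.27 over all arrays. The called-lower probes had medians of −1.23 and −1.25 within those slides, beside −1.22 over all arrays. The sign was kept within both slides by 402 of the 403 higher and all 314 lower probes. Within each of the 2 scans all of them kept it. The calls were made on these same arrays, and 707 of the 717 had groups that did not overlap. These signs, and the medians within slides, therefore follow largely from the calls. Against the 0 h cultures, the warm cultures had 0 called probes and 0 with an adjusted p under 0.05 (smallest 0.0571). There were 1303 probes at an unadjusted p under 0.05, or 4.05% of all. With the slide as a block 8 probes had an adjusted p under 0.05 and 0 were called, and with the authors' values 50 had one and 2 were called.

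Only 4047 of the 32162 probes could be given exactly 1 gene name. Of these, 126 were called (3.11%), 64 higher from 54 genes and 62 lower from 56 genes. The names come mostly from gene tables of the study, so that they are not a random sample of the array. The remaining 591 called probes have no gene name here, among them the probe with the largest rise, A_09_P209045, with a log2 change of 3.55 (adjusted p = 1.18e-08), and A_09_P121465 with 3.50. The unnamed probes with the largest falls were A_09_P100320, at −3.24 (adjusted p = 9.96e-11), and A_09_P205345, at −2.89. Of the 46 called genes with more than 1 probe, 42 had all probes on the same side of 0 and 12 had every probe called. The exceptions in sign were Fur1, Ilp6, RpS23 and nonA. No gene was called in both directions.

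The largest rise of a named gene was that of Kah on chromosome arm 3L, which encodes a zinc-finger transcription factor of the Snail family. Its probe read 7.04, 6.63 and 6.97 on the log2 scale on warm arrays 1 to 3 and 10.57, 10.46, 10.45 and 10.06 on cold arrays 1 to 4. The groups stood more than 3 log2 units apart, an 11.4-fold rise (log2 change 3.51, SE 0.24, adjusted p = 2.68e-09 in limma). A dimmer second probe, which no warm array measured above background, rose by 0.76 (adjusted p = 7.02e-05). Prip, on arm 2R, encodes an aquaporin, a membrane channel for water and small solutes. It read 9.80, 9.48 and 9.60 in warm cells and 12.49, 12.48, 12.62 and 12.34 in cold cells. This was a 7.22-fold rise with a narrow spread in both groups (log2 change 2.85, SE 0.15, adjusted p = 1.21e-10). The probe of the other named aquaporin gene, AQP, was below background on all 7 arrays.

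daw, another of the 12 largest rises, encodes a TGF-beta ligand of the Activin branch. It read 8.42, 8.04 and 8.62 in warm cells and 10.82, 10.46, 10.90 and 10.21 in cold cells (4.71-fold, adjusted p = 1.07e-07). Dad, whose product is an inhibitory Smad of the BMP branch, rose by 1.10 and 1.07 with its 2 probes. Pvf3, a ligand of the PDGF and VEGF receptor homologue Pvr, read 7.71, 6.92 and 7.69 in warm cells and 8.80, 10.00, 9.19 and 9.44 in cold cells. It rose by 1.92 (SE 0.27, adjusted p = 3.21e-05), and cold replicate 1 was the lowest of its group. A second Pvf3 probe rose by 1.09 (adjusted p = 0.000554) and the remaining one read 1.06 higher without passing the test (adjusted p = 0.114).

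The named genes downstream of Pvr and its companions did not all move. Most listed members had no named probe, among them Pvr, Pvf2, aop, dome, Stat92E and Socs36E. Of 10 probes from 5 genes of the Pvr, ETS and JAK/STAT list, 4 were called higher and 0 lower. Over all probes 1.25% were called higher, and 3.11% of named probes were called in either direction. The list median was 0.68 beside 0.0016 over all probes. Names came mostly from the study's gene tables, so these shares do not stand for the pathways. Besides Pvf3, the called gene was rl, the fly ERK kinase, at 1.40 (adjusted p = 8.06e-07) and 1.03 (adjusted p = 0.0194). The single probe of pnt, an ETS activator, read 0.11 higher (adjusted p = 0.885). The 3 probes of the ETS factor gene Ets97D read −0.15, −0.32 and −0.12 without passing the test. The probe of upd3, a JAK/STAT ligand gene, read 0.34 higher (adjusted p = 0.0537) and was above background on 1 of 3 warm arrays.

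Cytoskeletal and adhesion genes gave 3 of the largest rises. betaTub97EF, on arm 3R, encodes a beta-tubulin and was bright in both groups. It read 11.85, 11.59 and 12.40 in warm cells and 13.88, 13.89, 13.89 and 13.95 in cold cells. The cold arrays nearly coincided, and the rise was 3.87-fold (log2 change 1.95, SE 0.12, adjusted p = 5.73e-10). ItgaPS4, an integrin alpha subunit gene, read 7.87, 7.32 and 7.77 in warm cells and 9.35, 10.26, 9.88 and 9.80 in cold cells (4.49-fold, adjusted p = 6.12e-07). Its other probe was near background and read 0.16 higher (adjusted p = 0.697). Zasp52, whose product sits at integrin attachment sites and muscle Z discs, read 8.93, 8.28 and 9.13 in warm cells and 10.02, 11.15, 10.71 and 11.00 in cold cells. The rise was 3.83-fold (adjusted p = 2.3e-05).

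Other tubulin genes had smaller values than betaTub97EF. Of 15 tubulin probes from 9 genes, 1 was called, 5 were higher at an adjusted p under 0.05 without the fold limit and 0 were lower. The tubulin median was 0.23, and 0.01 when each array was scaled to its median. alphaTub84D rose by 0.80 (adjusted p = 5.6e-07) and 0.63 (adjusted p = 2.96e-05) with 2 probes, and the other read 0.74 higher (adjusted p = 0.0661). betaTub60D rose by 0.55 (adjusted p = 0.00142). alphaTub67C rose by 0.23 (adjusted p = 0.0295), although no warm array measured it above background. The common isotypes did not pass the test, with alphaTub84B at −0.13, 0.35 and 0.26 and betaTub56D at −0.29 and −0.15, and neither did gammaTub23C at −0.48. The probe of alphaTub85E was above background on 1 array of each group, and the 2 probes of betaTub85D, known from the testis, on none. In the integrin adhesion and actin list, 2 of 32 probes were called (2.23% of all probes), those of ItgaPS4 and Zasp52. The list median was 0.07, or −0.15 after median scaling. Members such as mys, if, rhea, Ilk and Act5C had no named probe, so it covers only part of the list. Pax, which encodes the adhesion scaffold paxillin, rose by 0.76 (adjusted p = 0.00833), and sqh, the myosin light chain gene, fell by 0.45. Of the extracellular matrix list, wb, a laminin chain gene, rose by 0.86 (adjusted p = 0.00426) and Dg, the dystroglycan gene, by 0.85 (adjusted p = 0.00792).

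**Figure D2:**
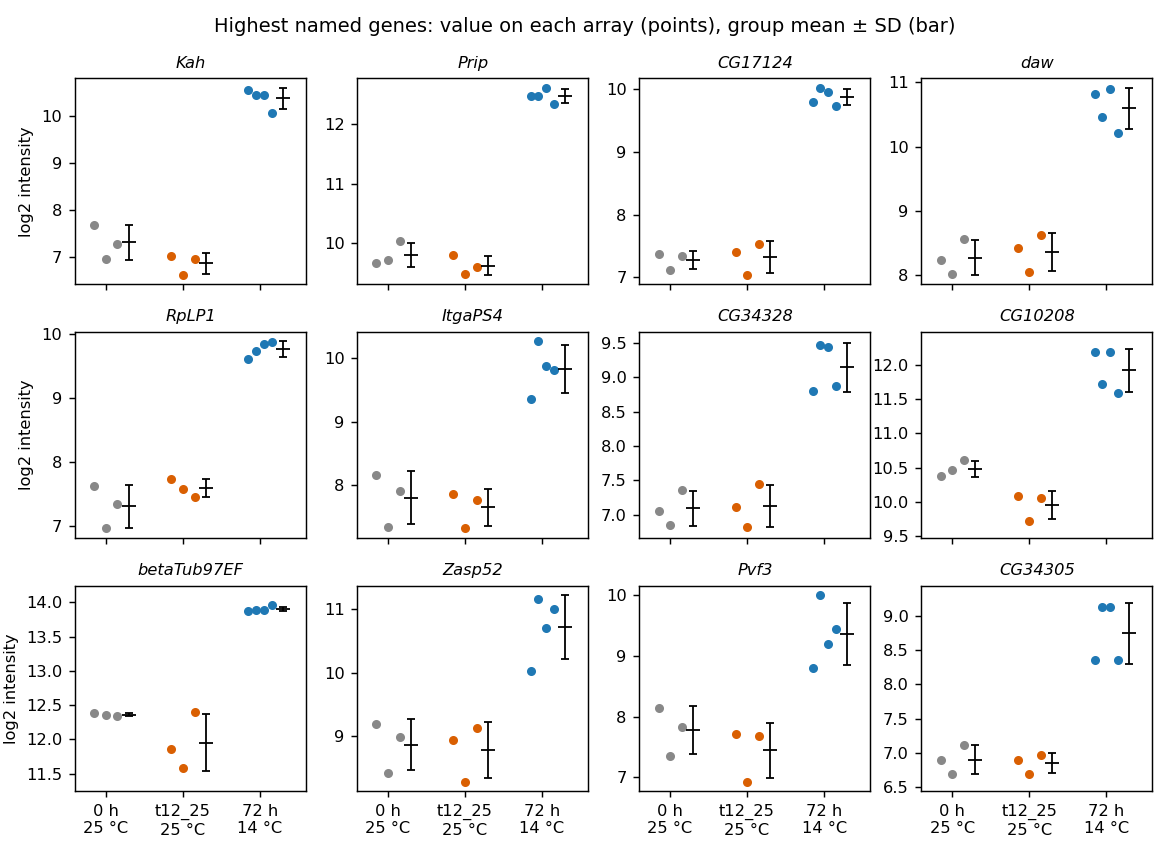
Log2 intensity of the 12 named genes with the largest rises on each array (points: 0 h grey, warm cultures t12_25 orange, 72 h at 14 °C blue), with the group mean ± SD as a bar and a separate vertical scale for each gene. No overlap of the cold and warm arrays was a condition for choosing these 12 genes. Kah was 11.4-fold and CG34305 3.70-fold higher in the cold cultures.

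The remaining genes of the 12 largest rises were RpLP1, which encodes a ribosomal stalk protein, and the CG genes CG17124, CG34328, CG10208 and CG34305. The RpLP1 probe read 7.73, 7.58 and 7.45 in warm cells and 9.61, 9.73, 9.85 and 9.87 in cold cells (4.52-fold, adjusted p = 2.22e-07). A brighter RpLP1 probe stood at 16.69 and 16.85, a difference of 0.17 that did not pass the test (adjusted p = 0.446), so that the 2 probes of the gene gave different answers. In a separate array experiment the study reports RpLP1 among genes whose cool-raised probes detect only the form with the longest 3′ untranslated region. Whether the probe that rose here is of that kind was not tested. CG17124 read 7.39, 7.04 and 7.53 in warm cells and 9.81, 10.03, 9.95 and 9.73 in cold cells. The spread within groups was narrow for a rise of 5.89-fold (adjusted p = 2.41e-11). CG34328 rose by 2.02, CG10208 by 1.96 and CG34305 by 1.89, each with adjusted p under 0.05. Groups without overlap were a condition for all 12 of these genes.

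A small set of genes was above background only in the cold group. No warm array and all 4 cold arrays measured nompB, whose product is an intraflagellar transport protein, and it read 3.17-fold higher in the cold (adjusted p = 1.98e-07). On each warm array the fold was taken against the higher of the probe's own value and the dimmest value well above background. For nompB its own values of 6.14, 6.18 and 6.24 were the higher, so this fold is the plain estimate and not a lower limit. By the same rule the antisense RNA asRNA:CR43474 read 3.00-fold higher (adjusted p = 4.96e-07), again the plain estimate. Cpr49Ac, a cuticle protein gene, read 2.07-fold higher (adjusted p = 1.01e-08). With the authors' values the log2 changes were 1.47 for nompB, 1.40 for asRNA:CR43474 and 0.92 for Cpr49Ac. For Tat, the tyrosine aminotransferase gene, measured on 1 of 3 warm arrays, the rise was 1.04 (adjusted p = 1.36e-07).

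Genes of growth signalling were among the higher ones. Of 64 probes from 31 genes of insulin and TOR signalling, 5 were called higher (1.25% of all probes) and 0 lower, and 13 were higher (20.3%, against 6.27% of all probes) and 2 lower without the fold limit. The median was 0.09, and −0.12 after median scaling, so that the list as a whole had no stable direction. Thor, the 4E-BP gene, whose product restrains cap-dependent translation, read 9.50, 9.35 and 9.92 in warm cells and 11.65, 11.39, 11.55 and 10.98 in cold cells. The groups were more than 1 log2 unit apart (log2 change 1.81, SE 0.21, adjusted p = 4.36e-06). Pdk1, which encodes a kinase that activates Akt, rose by 1.29 with 1 of its 5 probes (adjusted p = 0.000157). Its other probes rose by 0.98 and 0.53, under 2-fold, read 0.90 (adjusted p = 0.107) or were below background. The insulin-like peptide gene Ilp6 rose by 1.21 with 1 of its 5 probes (adjusted p = 0.00814), by less than 2-fold with 3, at 0.99, 0.39 and 0.18, and read −0.13 with the last (adjusted p = 0.774). ImpL2, whose product binds and antagonises insulin-like peptides, rose by 1.04 and 1.03 with its 2 probes, the first of which read 0.97 with the scan as a block.

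Further called genes, chosen after their values were seen, included the following. unc-5, a netrin receptor gene, rose with all 3 probes, by 1.47, 1.29 and 1.18. 18w, a receptor gene of the Toll family, rose by 1.48 (adjusted p = 3.87e-07). Sting, which encodes a sensor of cyclic dinucleotides, rose from 13.67 ± 0.03 (SD, n = 3) to 15.11 ± 0.11 (n = 4), with adjusted p = 1.17e-10 in limma. BomBc2, of the secreted Bomanin peptides, rose by 1.16 and 1.22. None of the 5 probes of a list of immune effectors was called, 1 was lower without the fold limit, and 3 of them were above background on no array. The supervillin gene Svil rose by 1.68 and 1.66, and mim, whose product links membranes to actin, by 1.25 and 1.07.

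The largest falls were those of CG12896 and Prx6c, both on arm 2R and both encoding peroxiredoxins, enzymes that reduce peroxides. CG12896 read 11.86, 12.63 and 11.93 in warm cells and 7.66, 8.47, 8.46 and 7.48 in cold cells. Every cold array was more than 3 log2 units below every warm array, a 17.4-fold fall (log2 change −4.12, SE 0.24, adjusted p = 3.72e-10). Prx6c read 11.85, 12.27 and 12.13 in warm cells and 7.36, 8.55, 8.41 and 7.62 in cold cells (17.2-fold, adjusted p = 5.53e-09). Replicates 1 and 4 were the lower cold arrays for both of these related genes. These arrays were read in scan 1 and replicates 2 and 3 in scan 2. Other lower genes such as CG34232, Mcm5 and dpa had the same order, whereas ND-AGGG did not, so the order is not particular to this pair. Whether each probe also binds the other transcript was not tested. A second Prx6c probe was below background on all 7 arrays. Both probes of the catalase gene Cat fell, by 1.01 and 1.00, at the edge of the fold limit. With the slide as a block the falls were 0.87 and 0.95, under 2-fold and still with adjusted p under 0.05. The redox list held 4 called-lower probes of 10 (0.976% of all probes), all from these 3 genes, with a median of −0.04 over its members. Of its 10 probes 3 were above background on no array. Most of its listed genes, among them Jafrac1, Prx3 and Trxr-1, had no named probe, so the share does not stand for redox genes as a whole. Among 18 glutathione transferase probes 1 was called, GstE2, which rose by 1.34 (adjusted p = 9.83e-11), while GstZ1 fell by 0.90 and 0.75.

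**Figure D3:**
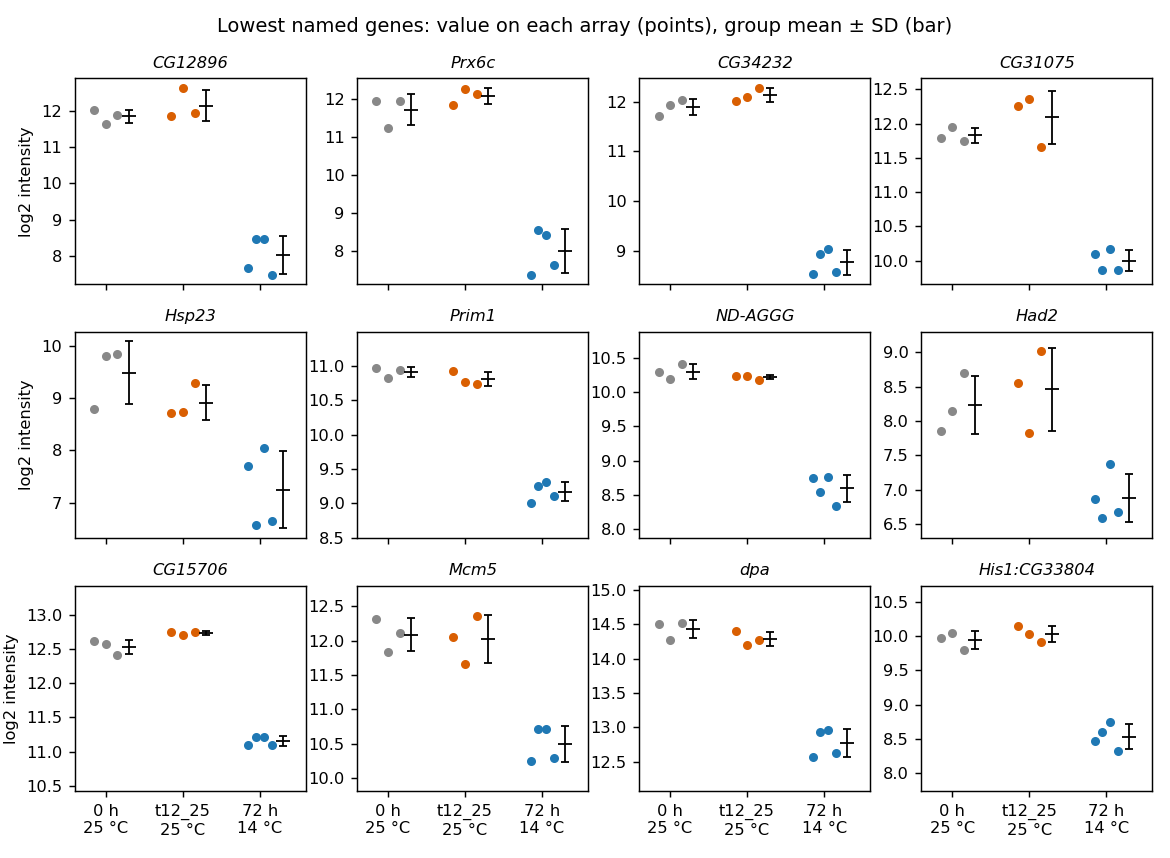
Log2 intensity of the 12 named genes with the largest falls on each array (points: 0 h grey, warm cultures t12_25 orange, 72 h at 14 °C blue), with the group mean ± SD as a bar and a separate vertical scale for each gene. No overlap of the cold and warm arrays was a condition for choosing these 12 genes. The cold arrays of Hsp23 range from 6.58 to 8.05.

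CG34232, on arm 2R, was the next of the lower genes. It read 12.01, 12.10 and 12.28 in warm cells and 8.54, 8.93, 9.05 and 8.58 in cold cells, a 10.2-fold fall (adjusted p = 6.09e-11). CG31075, of the study's amino acid catabolism list, read 12.25, 12.36 and 11.65 in warm cells and 10.10, 9.87, 10.17 and 9.87 in cold cells (4.25-fold, adjusted p = 1.62e-09). That list held 4 called-lower probes and 1 called higher of 26, with a median of −0.11, and one of the lower genes was arg, the arginase gene, at −1.42 (adjusted p = 1.11e-06). CG15706 fell by 1.57 with an SE of 0.06, from 12.74, 12.70 and 12.75 to 11.10, 11.22, 11.21 and 11.10. Its SE was the smallest of the 12 lower genes. Had2 fell by 1.59 (adjusted p = 0.000785).

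Genes of DNA replication fell together. All 53 probes of the 37 S phase genes in the study's list read lower in the cold, between −1.64 and −0.10, with a median of −0.80. Of them 15 were called lower, 37 were lower at an adjusted p under 0.05 without the fold limit (69.8%, against 7.08% of all probes) and 16 did not pass. The median over the list, relative to the warm mean, was −0.92, −0.75, −0.72 and −0.84 on cold arrays 1 to 4 and 0.04, −0.09 and 0.02 on warm arrays 1 to 3. Within slide 1 it was −0.74 and within slide 5 −0.79. The list comes from the study, and its direction in these cells was known when it was chosen here.

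Genes of several replication steps fell. Prim1, the small primase subunit gene, read 10.93, 10.76 and 10.74 in warm cells and 9.00, 9.25, 9.31 and 9.11 in cold cells (3.12-fold, adjusted p = 3.96e-08). The MCM helicase genes fell with 8 of 9 probes and all 6 genes at an adjusted p under 0.05. dpa, which encodes Mcm4, went from 14.40, 14.20 and 14.28 to 12.57, 12.94, 12.96 and 12.62 (log2 change −1.52, SE 0.11, adjusted p = 4.3e-09). Mcm5 went from 12.05, 11.67 and 12.36 to 10.25, 10.72, 10.71 and 10.28 (−1.54, adjusted p = 1.49e-06). Of the origin recognition complex, 9 of 11 probes passed, with Orc5 at −1.34, Orc4 at −1.23 and Orc6 at −1.12. Both ribonucleotide reductase genes were called, RnrS falling from 14.69 to 13.40 (adjusted p = 1.82e-10) and RnrL from 15.24 to 14.07 (adjusted p = 3.55e-06). PolA2, a polymerase alpha subunit gene, fell by 1.34 and the GINS gene Sld5 by 1.29. At the entry to S phase, the 4 probes of CycE read between −0.51 and −0.12 and did not pass, while Cdk2 fell by 0.64 without reaching 2-fold.

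Genes of mitosis also fell, with smaller values. All 45 probes of the 35 M phase genes read lower, between −1.25 and −0.04, with a median of −0.50. Of them 2 were called, the kinetochore genes Mis12 at −1.25 (adjusted p = 3.72e-10) and Spc25 at −1.16 (adjusted p = 3.75e-08). Over all probes 0.976% were called lower. Without the fold limit 23 of the M phase probes were lower (51.1%, against 7.08% of all probes). The list median was −0.57, −0.52, −0.51 and −0.47 on cold arrays 1 to 4 and 0.04, −0.06 and −0.10 on warm arrays 1 to 3. Histone probes fell with these genes. His1:CG33804 went from 10.15, 10.04 and 9.91 to 8.46, 8.60, 8.75 and 8.32 (2.83-fold, adjusted p = 2.6e-09) and His2B:CG17949 fell by 1.04, although histone genes are near-identical copies and a probe cannot be assigned to 1 of them with certainty.

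**Figure D4:**
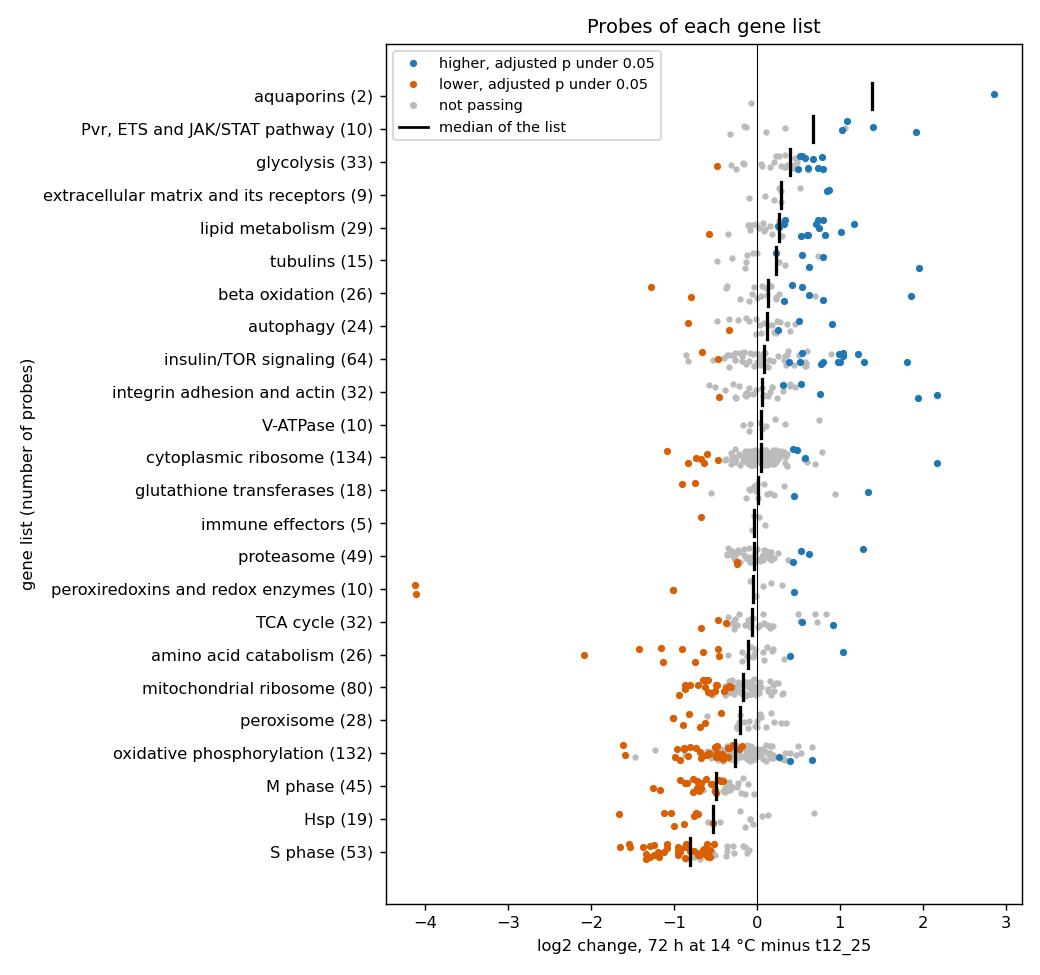
Log2 change between the cold and the warm cultures (horizontal axis) of every probe in each gene list (rows, with the number of probes), in blue where higher and orange where lower at an adjusted p under 0.05, grey otherwise, with a black bar at the list median. All 53 S phase and all 45 M phase probes lie below 0, with medians of −0.80 and −0.50.

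Some genes of small heat shock proteins fell. Of 19 probes of the heat shock list, 3 were called lower (0.976% of all probes), 9 were lower without the fold limit (7.08% of all probes), 0 were higher and 10 did not pass, with a median of −0.53. The 9 lower probes belonged to Hsp22, Hsp23, Hsp27, Hsp67Ba and Hsp67Bc. Hsp26 read 0.69 higher without passing (adjusted p = 0.26), and Hsp68, Hsp60A, DnaJ-1 and Hsp70Bc, whose products are larger chaperones or their partners, read between −0.20 and 0.06 and did not pass. The probes of the list that match several genes read between −0.59 (adjusted p = 0.0723) and 0.13 and did not pass either. Hsp23 encodes a small chaperone. It read 8.71, 8.73 and 9.29 in warm cells and 7.70, 6.58, 8.05 and 6.65 in cold cells. The cold arrays spanned over 1 log2 unit. The fall of 1.66 (SE 0.45, adjusted p = 0.0155) lost its call when cold replicate 2 (adjusted p = 0.0548) or warm replicate 3 (adjusted p = 0.0734) was left out. Hsp27, another small chaperone gene, fell with 2 called probes, by 1.12 and 1.03, and its other 2 probes were lower by less than 2-fold, one of them by 0.73. With the slide as a block the fall of 1.03 became one of 0.96, under 2-fold.

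Of the mitochondrial lists, 30 of 132 oxidative phosphorylation probes were lower and 3 higher without the fold limit (median −0.26), and 18 of 80 mitochondrial ribosome probes were lower and 0 higher (median −0.16). Against all probes (7.08% lower) these shares were 22.7% and 22.5%. Of the oxidative phosphorylation probes only both probes of ND-AGGG, a complex I subunit gene, were called. The first read 10.23, 10.24 and 10.18 in warm cells and 8.75, 8.54, 8.76 and 8.34 in cold cells (3.07-fold, adjusted p = 4.8e-10), and the second fell by 1.59 (adjusted p = 3.37e-07). Peroxisome genes had 7 lower and 0 higher of 28 probes (median −0.20), and the called ones were those of Cat.

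Genes of glycolysis and lipid metabolism leaned the other way. Of 33 glycolysis probes 9 were higher (27.3%, against 6.27% of all probes), 1 lower and 0 called, with a median of 0.41 that was 0.11 after median scaling. The triose phosphate isomerase gene Tpi rose by 0.79 and the phosphoglucose isomerase gene Pgi by 0.61. Of 29 lipid metabolism probes 14 were higher (48.3%), 1 lower and 2 called higher, with a median of 0.27 (0.13 after median scaling). In the beta oxidation list 6 of 26 probes were higher and 2 lower, with a median of 0.13 that was −0.08 after median scaling. Its called members were CG5321, which rose by 1.86, and CG3902, which fell by 1.28. A brighter CG3902 probe fell by 0.79, under 2-fold (adjusted p = 3.2e-06). The other CG5321 probe, which no warm array measured above background, rose by 0.32 (adjusted p = 0.00438).

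The protein-making and protein-degrading lists stayed near 0. Of 134 cytoplasmic ribosome probes 4 were higher and 7 lower (median 0.05, or −0.19 after median scaling). Of the 2 RpLP1 probes 1 was called higher, and 1 of the RpS23 probes was called lower at −1.08 while the other read 0.08. Of 49 proteasome probes 4 were higher and 2 lower (median −0.04), and the called one was Prosbeta3, which rose by 1.28. The tricarboxylic acid cycle (median −0.06), autophagy (0.12, or −0.16 after median scaling) and the vacuolar proton pump (0.05, or −0.19) had 0 called probes. For the pump only 10 probes from 4 genes were named, 3 of them above background on no array. Most of its listed subunit genes had no named probe, so the change of the pump as a whole cannot be read here.

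The earlier cold cultures show how the values at 72 h were reached. They share the warm arrays with the 72 h comparison, so each time is given with its own values. Against the warm cultures, 115 probes were called higher and 21 lower at 4 h (0.358% and 0.0653%), 319 and 122 at 12 h (0.992% and 0.379%) and 298 and 248 at 24 h (0.927% and 0.771%). Kah read 1.81, 1.99 and 2.66 higher at 4, 12 and 24 h. Prip read 0.19, 0.87 and 1.44 higher and CG17124 0.07, 0.48 and 0.83. daw read 0.08, 0.39 and 0.44 higher at these times and passed the test at none of them. Thor read 0.33, 0.57 and 0.38 higher. Tat had its highest values before 72 h, at 2.08, 2.47 and 2.14. Pvf3 was 0.90, 2.08 and 1.61 higher.

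Among the lower genes, CG12896 read −0.22, −0.74 and −2.25 at 4, 12 and 24 h and Prx6c −0.31, −0.71 and −2.25. CG31075 read −0.53, −1.36 and −2.24, so that its value at 24 h was close to that at 72 h, −2.09. The S phase median was −0.12 at 4 h, −0.53 at 12 h and −0.80 at 24 h, close to that at 72 h. The M phase median was −0.11, −0.19 and −0.28. With the 0 h cultures as the reference, 358 probes were called higher (1.11%) and 319 lower (0.992%) at 72 h. Some genes had different values against the 2 references, among them genes with large changes. CG10208 was 1.96 higher at 72 h than in the warm cultures and 1.44 higher than at 0 h, and betaTub97EF 1.95 and 1.54 higher. Hsp23 was 1.66 lower than in the warm cultures and 2.23 lower than at 0 h. CG17124 differed little, at 2.56 and 2.61 higher. Cat was 1.01 and 1.00 lower at 72 h than in the warm cultures but 0.51 lower than at 0 h with both probes, and it read 0.50 higher in the warm cultures than at 0 h. IRSp53, called with 1 of its 3 probes, was 1.07 higher than in the warm cultures and 0.65 higher than at 0 h. These shifts of the warm cultures from 0 h did not pass the test for any of these genes.

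**Figure D5:**
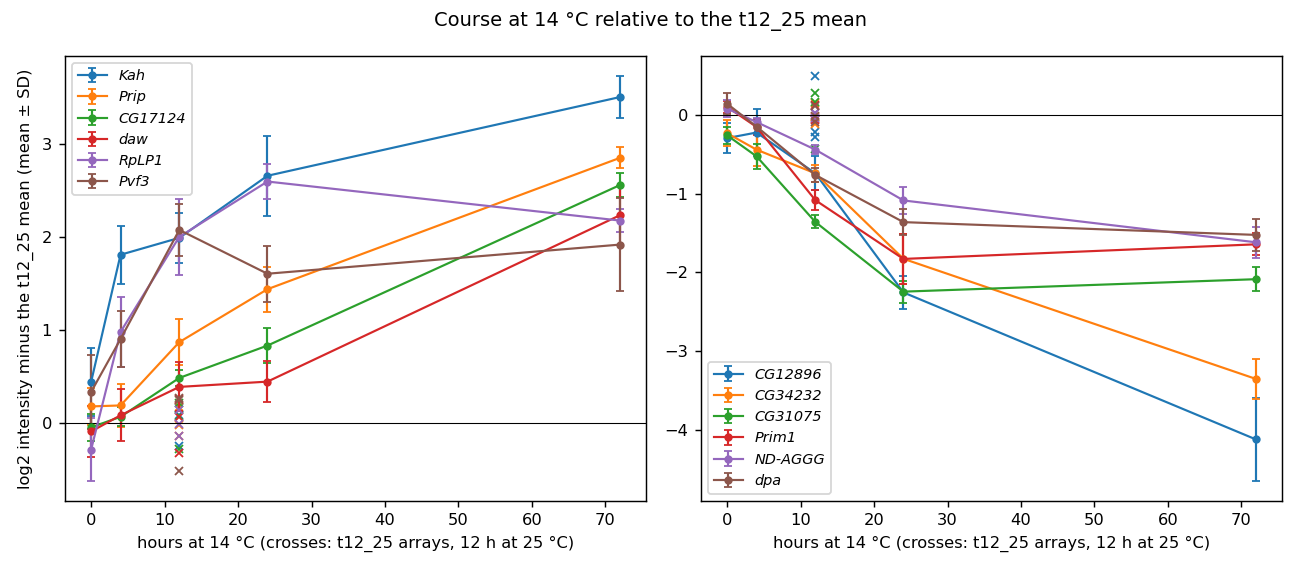
Log2 intensity relative to the mean of the warm arrays (vertical axis, mean ± SD of 3 to 5 arrays) against hours at 14 °C for 6 higher genes (left) and 6 lower genes (right), with the 3 warm arrays as crosses at 12 h. Kah was 1.81 higher at 4 h and 3.51 higher at 72 h, whereas daw was 0.44 higher at 24 h and 2.23 higher at 72 h.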

How the data were processed

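Per the file headers, the 23 one-colour Agilent arrays were scanned and quantified with Agilent Feature Extraction 10.7.3.1, and the deposited scanner files hold spot and local background intensity medians, a processed signal intensity, and flags for spots above background. The authors' own log2 table of the same arrays (limma, with normexp, quantile normalization and surrogate variable adjustment, per the study's methods) was used as an alternative, and limma is also named, without a version, in the submitters' processing notes. Here local background above 3 times the array median was set to that median, normexp was run with offset 50, values were quantile normalized and taken to log2, and spots of a probe were reduced to their median. The array medians of log2 intensity lay between 6.23 and 6.75. limma 3.58.1 in R 4.3.3 was fitted to all 23 arrays in 6 groups, with Benjamini-Hochberg adjustment over 32162 probes. A call needed an adjusted p under 0.05 and a 2-fold change, and 51 missing values were left out. The number of arrays limits the precision.

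Gene names came from the study's tables (2811 probes), a shared transcript ID (876) or the reference table of assembly Release 6 (360). The 28086 probes with no name, 19 with several and 10 with conflicting names were not named. The arrays' own annotation is of an older build, so chromosome arms are given from the reference by symbol and no coordinates are printed. Named genes were the 12 with the largest change in each direction that were above background on all 7 arrays without overlap of the groups, up to 4 in each direction that 1 group did not measure, and the called list members, at most 6 a list, with every member for tubulins, aquaporins and the Pvr list. Other called genes named in the text were chosen after their values were seen. Where no array of a group measured a probe above background, the change was taken against a reference set on each of its arrays. This was the higher of the probe's own value and the dimmest value well above background. The comparison, its genes and the lists were chosen with earlier results of these data known. The fit was tested on simulated data. Alternatives changed background, normalization, filter, baseline, blocks for slide, scan and replicate number, array weights, and left out each array in turn. Leaving out the cold arrays outside the quality range was chosen after the data were seen.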

Additional observations from a re-analysis of the deposited data

Results flagged for a closer look

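In the integrin adhesion and actin list, the median of cold replicate 4, 0.22 relative to the warm mean, stood apart from the other 3 cold arrays at 0.02 to 0.03, a gap of 0.94 of the range of the group. This was 1 of 51 groups of 4 or more arrays examined (1.96%), and chance alone sets apart about 1 group in 20. The negative control spots, which no comparison used, were 0.563 higher on the log2 scale on the cold arrays than on the warm arrays, by 0.573 within slide 1 and by 0.188 within slide 5. The cause of both values was not tested.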

How the results depend on the processing

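All 717 called probes kept their sign under every alternative run, and 0 were called in the other direction. The counts of higher and lower probes, 403 and 314 as reported, were 676 and 669 with normexp offset 0, 235 and 726 with median scaling, 2726 and 634 with the scanner's processed signal minus the 75th percentile, and 2017 and 2276 without the fold limit. Median scaling moved the median of all probes by −0.11 and the processed signal moved it by 0.44, and the share of calls that were higher was 56.2%, 24.5% and 81.1% in that order from the reported values on. Leaving out 1 array gave 348 to 472 higher and 292 to 417 lower probes. Without the cold arrays outside the quality range, with cold replicate 4 alone and assumed to vary like the other groups, 329 were higher and 438 lower, and 521 of the 717 kept their call. The S phase median of −0.80 was −0.90 with offset 0, −1.10 with median scaling, −0.93 with the processed signal and −0.81 to −0.77 without 1 array. The M phase median of −0.50 was −0.42 without the background limit, −0.72 with median scaling, −0.58 with array weights and −0.59 to −0.44 without 1 array. Of 27 named genes, 25 kept their call under all 23 alternatives. Hsp23 lost it with the 7 arrays alone (adjusted p = 0.062) and without warm replicate 3 or cold replicate 2, and Cpr49Ac was under 2-fold without the background limit (0.63), with the authors' values (0.92) and against 0 h alone (0.99). Same-numbered arrays of the groups correlated in their deviations with −0.51, −0.88 and 0.66, so the replicate numbers do not pair them. Cold replicate 1 matched warm replicate 2 best, and cold replicates 2 and 3 matched warm replicate 3. An Acsl probe, for example, read 8.70 on warm replicate 2 and 8.86 and 8.82 on cold replicates 1 and 4. It read 6.46 to 6.88 on the other arrays of both groups. Warm replicate 1, from the same scan as the bright arrays, was among the dimmer ones. The scan block therefore does not follow this split, and its cause was not tested. With the replicate block 446 probes were higher and 310 lower, and 682 of the 717 kept their call. With the slide or the scan as a block 10 of the 126 named called probes lost their call each time, both Cat probes among them, by falling under 2-fold. Mean spot signals were not run, since the files used here hold medians. The cause of these shifts was not tested. On the 7 arrays 46.8% to 53.9% of probes were well above background, which limits what can be said of the rest.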
